A study of Mus musculus with 4 samples.

Results

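The 10 genes described here, Acta2, Tagln, Myl9, Cnn1, Myh11, Tpm1, Tpm2, Actg2, Des and Cald1, encode contractile and cytoskeletal proteins by which smooth muscle is recognized. They were chosen by symbol, and all 10 were found among the 32285 genes of the count matrices. Single cells came from the proximal end of lower incisors of mice at postnatal day 15, in 2 WT libraries and 2 Din-KO libraries, measured by 10x Genomics 3' single-cell sequencing, in which a transcript is tagged at its 3' end and counted once by its unique molecular identifier (UMI). Din-KO mice carry a germline deletion in Din, the gene whose loss gives the dense incisor trait. The strain and the number of mice in a library are not given in the sources used here, so p-values measure the spread between these libraries, which may in part be technical.

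In smooth muscle, calcium entry activates myosin light chain kinase, phosphorylation of the regulatory light chain lets the myosin heavy chain pull on actin filaments, and tropomyosin, caldesmon and calponin lie on those filaments and restrain or stabilize them. Vascular smooth muscle cells wrap arteries and arterioles and set their width. Pericytes sit on capillaries, share many vascular mural markers and carry fewer of the contractile proteins. Serum response factor, with its partner myocardin, drives many smooth muscle genes through CArG boxes. Fibroblasts can also make part of the set, and Acta2 is widely used as a marker of myofibroblasts, so single genes of the set do not identify smooth muscle.

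The genes lie on 7 mouse chromosomes. In GRCm38, Acta2 (ENSMUSG00000035783) spans chr19:34241090-34255590 on the minus strand, Myh11 (ENSMUSG00000018830) chr16:14194535-14291372 on the minus strand, Actg2 (ENSMUSG00000059430) chr6:83512905-83536265 on the minus strand, Des (ENSMUSG00000026208) chr1:75360329-75368579 on the plus strand and Tagln (ENSMUSG00000032085) chr9:45929619-45936058 on the minus strand. Myl9 (ENSMUSG00000067818) spans chr2:156775420-156781658 on the plus strand, Cnn1 (ENSMUSG00000001349) chr9:22099216-22109630 on the plus strand, Tpm1 (ENSMUSG00000032366) chr9:67022590-67049406 on the minus strand, Tpm2 (ENSMUSG00000028464) chr4:43514711-43523765 on the minus strand and Cald1 (ENSMUSG00000029761) chr6:34598500-34775473 on the plus strand. Promoter windows of 300 bases, 250 before and 50 after the RefSeq start (GRCm38.p6), were given for 7 of the 10 genes. They were searched for the CArG box, read as CC, 6 bases that are each A or T, and GG, a form that is its own reverse complement, so that a single pass covers both strands. Myl9 alone of the 7 genes held such a box, in 1 of their 8 windows (12.5%), against 1.63% of all 32851 windows in the table. With 1 G or C allowed in the core, a form added after seeing the data, Acta2 held a pair of matches and Myl9 held another match. These lay in 2 of the 8 windows (25%), against 8.50% of all windows. The matches are shown because the boxes are the sequence that smooth muscle genes are best known to share. Each is given 5′ to 3′ on the gene's strand with 10 bases on either side and the match in capitals. The stretches are Acta2 chr19:34255438-34255467 and chr19:34255388-34255417, and Myl9 chr2:156775293-156775322 and chr2:156775355-156775384, in that order.
Acta2, 84 to 75 bases before the start: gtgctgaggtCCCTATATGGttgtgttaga
Acta2, 34 to 25 bases before the start: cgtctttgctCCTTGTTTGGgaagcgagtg
Myl9, 161 to 152 bases before the start: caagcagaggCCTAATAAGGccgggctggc
Myl9, 99 to 90 bases before the start: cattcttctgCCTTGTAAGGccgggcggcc
The third of these is the strict form, and the other matches hold 1 G or C in the core. In the GENCODE annotation the Acta2 gene starts further upstream, so both Acta2 stretches lie within its span, while both Myl9 stretches lie before the start of the Myl9 gene. The other 5 genes with a window (Cnn1, Tpm1, Tpm2, Des and Cald1) held neither form in it.

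After removal of barcodes with few genes or with high mitochondrial or hemoglobin counts, 11310 of 20502 barcodes remained, from 1272 to 4575 per library, with total UMI counts of 32198098 to 54348039 over all barcodes of a library and medians of 8016 to 11587.5 UMIs per kept cell. Any pair of libraries shared 4 to 12 barcodes. Din itself was at 28.9 and 36.8 counts per 1000000 UMIs (CPM) in the mesenchyme of the WT libraries and 23.2 and 28.2 CPM in that of the Din-KO libraries. These levels were close, and where the reads fall within Din cannot be seen from the counts, so Din does not check the labels. Cells with Y-linked UMIs (and at most 1 Xist UMI) were 43.8% and 45.4% of mesenchyme-like cells in the Din-KO libraries. They were 0 in the WT libraries, so over all cells sex and genotype cannot be told apart. Xist cells, with an Xist UMI and no Y-linked UMI, were also found in both Din-KO libraries (789 of 1975 and 84 of 147 pulp-like cells). Replicate 2 of either genotype held a larger share of follicle-like cells (23.7% and 26.8%) than replicate 1 (7.80% and 8.46%).

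Cells were clustered without the 10 genes, and clusters were named from other markers. One cluster of 78 cells was perivascular-like, with 25 and 19 cells from the WT libraries and 25 and 9 cells from the Din-KO libraries (replicates 1 and 2), or 0.546% to 1.22% of a library. All 10 of its markers, Rgs5, Notch3 and Ndufa4l2 among them, were detected in every library, at a sum of 16259 to 19123 CPM against 177 to 243 CPM in follicle-like and 459 to 496 CPM in pulp-like cells. Another 4 clusters of 1407 cells were dental follicle-like and 5 clusters of 4285 cells were dental pulp-like. The follicle markers summed to 5675 to 6654 CPM in follicle-like and 588 to 883 CPM in pulp-like cells. In perivascular-like cells they summed to 897 to 1458 CPM, above the pulp-like range, with 6 to 10 of 11 detected. The pulp markers summed to more in follicle-like cells (4576 to 5596 CPM) than in pulp-like cells (3368 to 4583 CPM), through Sfrp2, which was at 2859 to 3649 CPM in follicle-like cells. Without Sfrp2 they were at 1235 to 1946 CPM in follicle-like and 3189 to 3521 CPM in pulp-like cells. In perivascular-like cells, endothelial markers were at 47.2 to 73.7 CPM (3 to 5 of 7 detected), skeletal muscle markers at 0 to 18.6 CPM (0 or 1 of 9), mast cell markers at 0, epithelial markers at 24.8 to 803 CPM (1 to 5 of 9), glia markers at 8.60 to 229.9 CPM (1 to 4 of 7), neutrophil markers at 8.60 to 247 CPM (2 to 5 of 9), erythroid markers at 206 to 972 CPM (4 or 5 of 7) and mesenchyme markers at 3356 to 9887 CPM (5 or 6 of 6). With cells holding a UMI of Pecam1, Cdh5, Ptprc or Epcam removed, 73 of the 78 perivascular-like cells remained. The 7 genes then called higher than in follicle-like cells were the same as with all cells (Acta2, Myl9, Myh11, Tpm2, Actg2, Des and Cald1). Of all genes tested, 983 of 12333 were called higher. So few perivascular-like cells were removed that the calls could hardly change. Epcam was at 0 in the perivascular-like cells of every library. The part of the epithelial, glia, neutrophil and erythroid markers in the results was not tested.

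All 10 genes were higher in perivascular-like than in pulp-like cells, all 10 were higher in follicle-like than in pulp-like cells, and 7 were higher in perivascular-like than in follicle-like cells. The 7 were Acta2, Myl9, Myh11, Tpm2, Actg2, Des and Cald1. Of these, Des had at most 1.19 CPM in any follicle-like sum and 0 in the pulp-like sums. It passed the low count filter through the perivascular-like sums, where it was high, so its calls are not separate support. Cnn1, Myh11 and Actg2 held 10, 16 and 8 UMIs in pulp-like cells, too few to be tested there alone. They passed the filter through the other classes, so their calls against pulp-like cells are not separate support either. Tagln, Cnn1 and Tpm1 did not pass the test between perivascular-like and follicle-like cells. Myh11 and Actg2 were low outside the perivascular-like cluster among these 3 classes, whereas Tpm1, Tpm2 and Cald1 were found in all of them. Class differences were tested on UMI sums per library with the library as a block (edgeR quasi-likelihood test, Benjamini-Hochberg adjusted over 12650 genes). Of all those genes, 11.0% were called higher in perivascular-like than in pulp-like cells, 8.09% higher in perivascular-like than in follicle-like cells and 19.7% higher in follicle-like than in pulp-like cells, and 13.5%, 11.2% and 18.1% were called lower in these comparisons. The classes were separated by other genes of the same cells, so a called difference is not independent of the clustering. A level of a class is the CPM of its UMI sum, in which fewer expressing cells and less RNA per cell cannot be told apart.

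**Figure D1:**
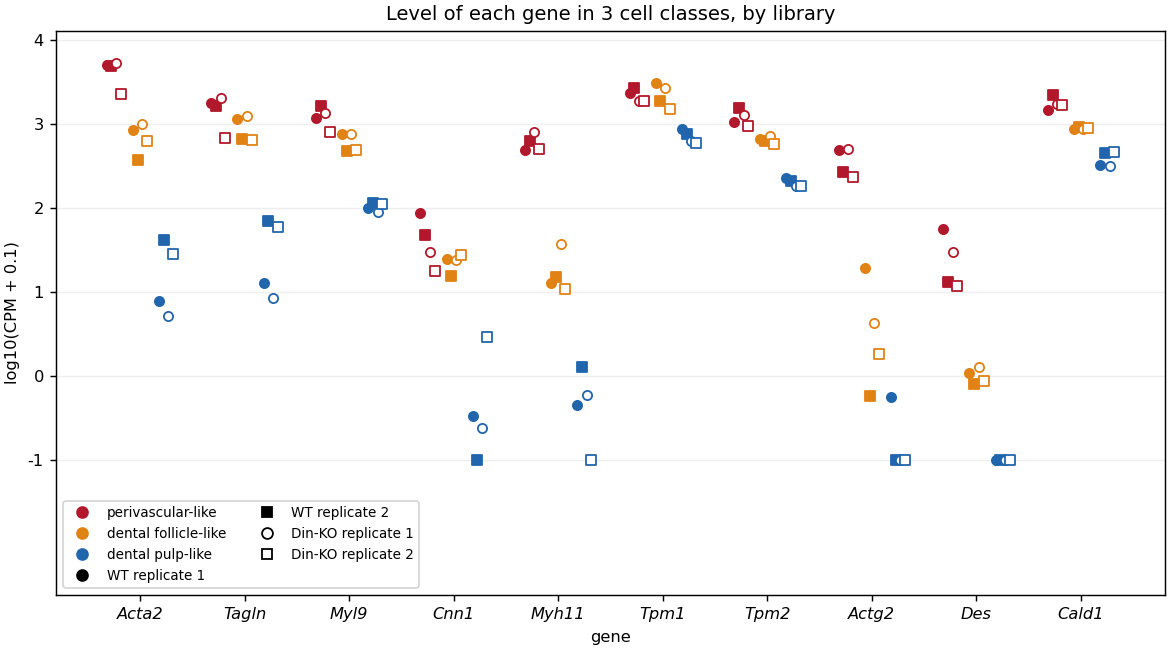
Levels of the 10 genes, as log10(CPM + 0.1) of UMI sums, in perivascular-like (red), dental follicle-like (orange) and dental pulp-like (blue) cells, with 1 point per library (filled WT, open Din-KO, circles replicate 1, squares replicate 2). For Myh11 and Actg2 the red points stand far above all others, whereas for Tpm1 the red and orange points overlap, and Des lies at the bottom of the axis (0 UMIs) in every pulp-like sum.

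Acta2, the alpha actin of vascular smooth muscle, stood, in perivascular-like cells, at 5003 and 4889 CPM in the first and second WT library and at 5238 and 2265 CPM in the first and second Din-KO library. In the same order it was at 832, 369, 996 and 627 CPM in follicle-like cells and at 7.73, 41.6, 5.02 and 27.8 CPM in pulp-like cells. The 3 classes did not overlap, and within the pulp-like class both replicate 2 libraries were above both replicate 1 libraries. The mean was 4349 ± 1397 CPM (SD, n = 4 libraries) in perivascular-like, 706 ± 271 CPM in follicle-like and 20.5 ± 17.3 CPM in pulp-like cells. The log2 fold change was 8.0 ± 0.64 (SE) over pulp-like cells (adjusted p = 3.27e-07) and 2.41 ± 0.48 over follicle-like cells (adjusted p = 0.00203).

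Actg2, the gamma actin of visceral smooth muscle, was at 483, 269, 499 and 230 CPM in perivascular-like cells of WT replicates 1 and 2 and Din-KO replicates 1 and 2. In follicle-like cells it was at 19.3, 0.473, 4.16 and 1.72 CPM, and WT replicate 1 stood apart there, with 98 UMIs of which 5 cells held 65.3%. In pulp-like cells 8 UMIs were counted in WT replicate 1 and 0 in the others. The log2 fold change of perivascular-like over follicle-like cells was 6.15 ± 0.43 (adjusted p = 1.48e-07). Acta2 and Actg2 encode nearly the same protein, and how reads common to both were counted cannot be seen from the counts.

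Myh11, the smooth muscle myosin heavy chain, was at 483, 625, 796 and 507 CPM in perivascular-like cells of WT replicates 1 and 2 and Din-KO replicates 1 and 2. It was at 12.6, 15.0, 36.8 and 10.8 CPM in follicle-like cells, and pulp-like cells held 6, 3, 7 and 0 UMIs. Every perivascular-like sum was more than 10 times every follicle-like sum. The log2 fold change was 4.95 ± 0.19 over follicle-like cells (adjusted p = 3.16e-10) and 10.32 ± 0.29 over pulp-like cells (adjusted p = 1.20e-11). Myh11 passed the low count filter through the other classes, so the p-value over pulp-like cells is not separate support.

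Myl9, the regulatory light chain of smooth muscle myosin, was at 1164, 1609, 1350 and 790 CPM in perivascular-like cells in the same order of libraries. In follicle-like cells it was at 754, 479, 761 and 485 CPM and in pulp-like cells at 99.7, 115, 88.3 and 110 CPM. The lowest perivascular-like sum, that of Din-KO replicate 2, was close to the highest follicle-like sum. The log2 fold change was 0.83 ± 0.19 over follicle-like cells (adjusted p = 0.00510) and 3.45 ± 0.20 over pulp-like cells.

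Tropomyosins wind along the actin filament and gate its access to myosin. Tpm1 was at 2328, 2629, 1879 and 1888 CPM in perivascular-like cells and at 3054, 1868, 2630 and 1492 CPM in follicle-like cells of WT replicates 1 and 2 and Din-KO replicates 1 and 2. The ranges overlapped, with perivascular-like cells above follicle-like cells in 2 of 4 libraries and a log2 fold change of -0.17 ± 0.15 (adjusted p = 0.494). Pulp-like cells had 588 to 859 CPM of Tpm1, below every other sum. Tpm2 was at 1040, 1553, 1256 and 950 CPM in perivascular-like cells against 573 to 719 CPM in follicle-like and 180 to 229 CPM in pulp-like cells, and the classes did not overlap. Its log2 fold change over follicle-like cells was 0.74 ± 0.14 (adjusted p = 0.00115). Tpm1 and Tpm2 are also made as cytoskeletal isoforms outside muscle, and counts at the 3' end do not tell most isoforms apart.

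Cald1, the actin-binding protein caldesmon, was at 1461, 2191, 1729 and 1669 CPM in perivascular-like cells. It was at 860 to 911 CPM in follicle-like cells, a narrow range, and at 316 to 455 CPM in pulp-like cells. The log2 fold change was 0.84 ± 0.11 over follicle-like cells (adjusted p = 7.85e-05). Cald1 was also at 407 ± 31.2 CPM (SD, n = 4 libraries) in endothelium-like and 400 ± 140 CPM in glia-like cells.

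Tagln, which encodes the actin-binding protein transgelin (SM22-alpha), was at 1765, 1640, 2026 and 672 CPM in perivascular-like cells and at 1145, 651, 1222 and 645 CPM in follicle-like cells of WT replicates 1 and 2 and Din-KO replicates 1 and 2. It was higher in perivascular-like cells in 4 of 4 libraries, but in Din-KO replicate 2 the 2 classes were nearly level, and the log2 fold change was 0.55 ± 0.50 (adjusted p = 0.522). Pulp-like cells had 12.6, 70.0, 8.30 and 59.9 CPM, so that the log2 fold change of follicle-like over pulp-like cells was 4.99 ± 0.62 (adjusted p = 1.56e-05). Glia-like cells had 172 to 317 CPM of Tagln and no more than 76.7 CPM of Acta2.

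Cnn1, calponin, a thin filament protein of differentiated smooth muscle, was sparse. Perivascular-like cells held 14, 11, 7 and 3 UMIs, or 86.7, 47.7, 30.1 and 17.7 CPM, in only 9 of 78 cells. Follicle-like cells had 24.6, 15.3, 24.1 and 27.1 CPM from 122 to 173 UMIs per library, in 220 of 1407 cells. Perivascular-like cells were higher in 3 of 4 libraries, and the log2 fold change was 0.85 ± 0.44 (adjusted p = 0.218). Against pulp-like cells, which held 10 UMIs in all, the follicle-like class had a log2 fold change of 6.25 ± 0.47 (adjusted p = 1.14e-07). Cnn1 passed the low count filter through the other classes, so this p-value is not separate support.

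Des, desmin, the intermediate filament protein of muscle, was sparse as well. Perivascular-like cells held 9, 3, 7 and 2 UMIs, or 55.7, 13.0, 30.1 and 11.8 CPM. Follicle-like cells had 0.710 to 1.19 CPM, and no UMI was counted in 4285 pulp-like cells. With 3 counts over the 4 libraries as the limit that a count of 0 allows, pulp-like cells were at no more than 0.0844 CPM. The pooled perivascular-like level, 26.4 CPM from 21 UMIs, was 313-fold that limit, with its own counting error left out. Over follicle-like cells the log2 fold change of Des was 4.60 ± 0.57 (edgeR adjusted p = 0.000140). Des entered that test through the perivascular-like sums, where it was high, so the p-value is not separate support for the difference.

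**Figure D2:**
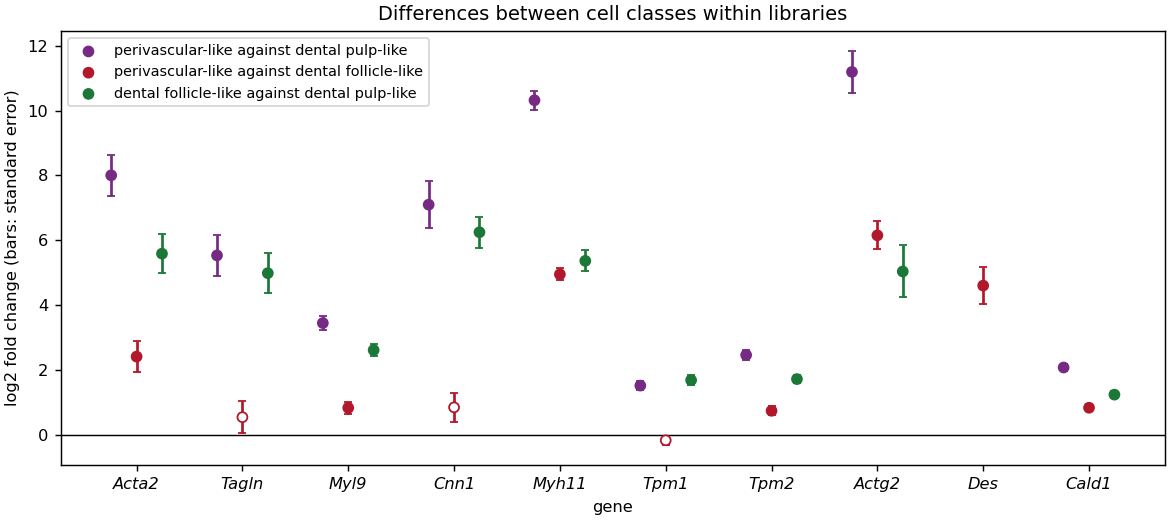
Log2 fold changes of UMI sums between classes within libraries (points, with bars of 1 standard error), filled where the edgeR adjusted p was under 0.05. Open points mark Tagln, Cnn1 and Tpm1 between perivascular-like and follicle-like cells, and Des is drawn only for that comparison, since it had no UMI in pulp-like cells.

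The comparison of perivascular-like with follicle-like cells depended on which cells were taken as perivascular. With each cell judged on its own from marker UMIs, 553 cells were taken, of which the clusters placed 336 in the pulp-like class, 77 in the perivascular-like class and 49 in the follicle-like class. Among these cells 3 genes were higher than in follicle-like cells (Actg2, Des and Myh11) and 4 were lower (Cnn1, Tagln, Tpm1 and Tpm2), and Acta2 had a log2 fold change of 0.35. Of all genes tested with these cells, 13.2% were called higher and 12.9% lower. At a coarser clustering the perivascular-like cluster took in 159 cells of a follicle-like cluster led by Lpl, Mfap5 and Lepr and held 238 cells. There Myh11 and Actg2 were called higher and Tpm1 lower, and Des was not tested, against 9.44% of all genes called higher and 8.23% lower. Myh11 and Actg2 were higher in perivascular-like cells under every alternative tried.

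Within the perivascular-like cluster the genes were unevenly spread over cells. No Acta2 UMI was found in 26 of 78 cells, and 22 cells had at least 5000 CPM. In each library the 5 cells with the most Acta2 UMIs held 81.6% to 96.1% of them, so the Acta2 level of a library rested on few cells. The cells without Acta2 were shallower, with a median of 4658 UMIs against 8844 in the 30 cells with some Acta2 and 10778 in the 22 cells at 5000 CPM or above. Described by these Acta2 levels, with no test, Myh11 was found in 18 of 22 cells at the high level, 14 of 30 at the lower level and 4 of 26 without Acta2. Actg2 was found in 17, 7 and 1 of these cells, Tagln in 21, 22 and 3, and Cnn1 in 8, 1 and 0. Cald1 was found in 22 of 22, 30 of 30 and 24 of 26, and Tpm1 in 22, 30 and 21. Although most cells had a UMI of both, their levels were lower where Acta2 was lower, at 2159, 1933 and 957 CPM for Cald1 and 3801, 1813 and 572 CPM for Tpm1. These levels are pooled over the cells of a group. In the middle group a cell of 81733 UMIs held 159 Cald1 and 199 Tpm1 UMIs. Another cell there, of 41891 UMIs, held 161 and 95, so these cells weigh heavily in its levels.

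Des went the other way in the pooled cells, though not in every library. It was found in 8 of the 26 cells without Acta2, in 2 of the 30 cells at the lower level and in 1 of the 22 cells at the high level, at 105, 5.48 and 3.88 CPM, although the cells without Acta2 were the shallowest. Those without Acta2 numbered 9 and 4 in WT replicates 1 and 2 and 12 and 1 in Din-KO replicates 1 and 2. In Din-KO replicate 2 that cell had no Des UMI, and the Des UMIs lay in cells with Acta2. All 76 perivascular-like cells with at least 2000 UMIs had an Rgs5 UMI after thinning to 2000 UMIs per cell, with or without Acta2. With cells thinned, Myh11 was found in 58.1% of 43 cells with Acta2 and in 6.06% of 33 cells without it, and Notch3, a receptor of mural cells, in 76.7% and 81.8%. Rgs5 and Notch3 are among the markers that named the cluster. They were not left out of the clustering, so their shares do not test what these cells are.

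**Figure D3:**
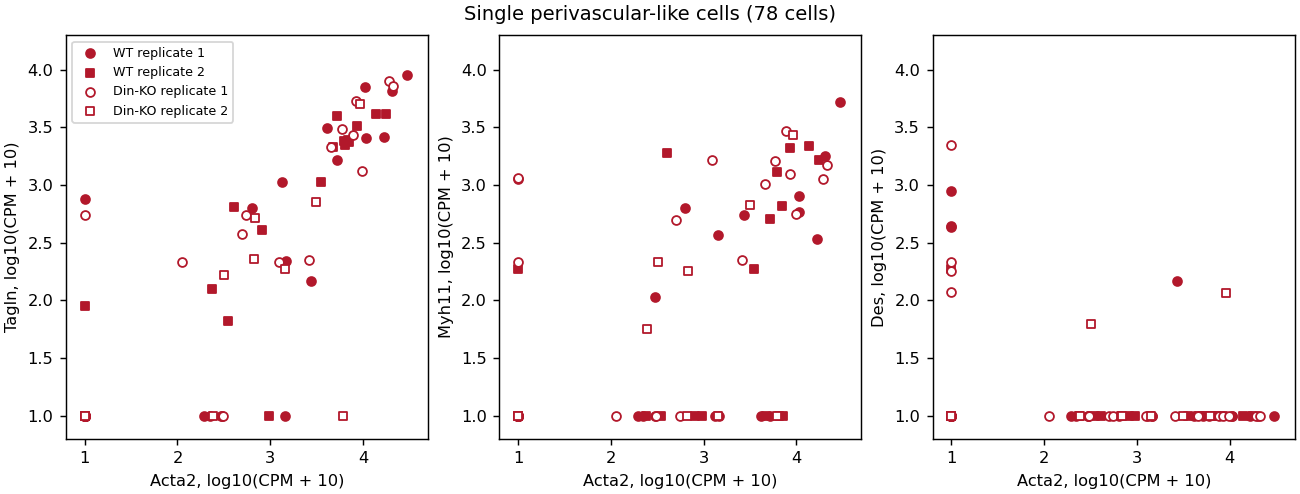
Tagln, Myh11 and Des in the 78 perivascular-like cells against Acta2, each as log10(CPM + 10) of a single cell, with filled points for WT and open points for Din-KO libraries. Tagln and Myh11 are high in the cells on the right, with high Acta2, whereas 8 of the 11 cells with Des lie at the left edge, where no Acta2 UMI was counted.

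By share of cells with a UMI, Acta2 separated perivascular-like from follicle-like cells less than by level. It was found in 64.0%, 78.9%, 52.0% and 88.9% of perivascular-like cells of WT replicates 1 and 2 and Din-KO replicates 1 and 2, in 67.0%, 58.9%, 64.4% and 57.6% of follicle-like cells and in 3.21%, 7.42%, 1.32% and 6.12% of pulp-like cells. With cells thinned to 2000 UMIs the shares were 52.0%, 73.7%, 45.8% and 62.5% of perivascular-like cells and 44.1%, 26.7%, 45.4% and 36.3% of follicle-like cells. In Din-KO replicate 1 these were level, and the 95% interval of the perivascular-like share (exact binomial, 24 cells) ran from 25.6% to 67.2%. The thinned share was 0.356% to 4.17% in pulp-like cells. Classes that should lack the gene were taken as a guide to the background of free RNA, although Acta2 was not always evenly spread in them. In WT replicate 1, 5 macrophage-like cells held 68.3% of the 82 Acta2 UMIs of that class. Thinned, Acta2 was found in 0.546% to 2.30% of macrophage-like, 0 to 1.68% of B-like, 0 to 0.877% of odontoblast-like and 3.13% to 15.3% of neutrophil-like cells, the last from 18 to 72 cells per library. The pulp-like share was below the macrophage-like share in both replicate 1 libraries (1.30% against 1.69% in WT and 0.356% against 0.546% in Din-KO) and above it in both replicate 2 libraries (2.63% against 1.79% in WT and 4.17% against 2.30% in Din-KO), where the pulp-like shares rested on 6 of 228 and 6 of 144 cells. Pulp-like Acta2 was also concentrated in few cells, with 51.1% to 90.0% of a library's UMIs in 5 cells, whereas 5 cells held at most 22.8% in the follicle-like class. Counting the set together, a thinned perivascular-like cell had a median of 5 of the 10 genes detected, a follicle-like cell 4, a pulp-like cell 2, an endothelium-like cell 1 and a macrophage-like cell 0. At least 5 of the genes were detected in 55.3% of perivascular-like, 36.4% of follicle-like and 0.445% of pulp-like cells.

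Follicle-like cells with Acta2 mostly had Tagln and Myl9 and rarely Myh11. Among 526 thinned follicle-like cells with Acta2, Tagln was found in 78.5% and Myl9 in 77.6%, but Myh11 in 2.85% and the mural marker Rgs5 in 4.75%. Among the 874 without Acta2, Tagln was found in 36.6% and Myl9 in 44.3%, and the shares of both were higher with Acta2 in 4 of 4 libraries. Myh11 was found in 1.72% of the cells without Acta2. Cnn1 was found in 7.79% with Acta2 and 0.686% without it. Both were also higher with Acta2 in 4 of 4 libraries. Rgs5 was found in 2.97% without Acta2 and was higher with it in 3 of 4 libraries. Pdgfra, a fibroblast receptor, was found in 29.8% of follicle-like cells with Acta2 and in 27.6% of those without it, higher with Acta2 in 2 of 4 libraries. It was found in 0 of 43 perivascular-like cells with Acta2. Col1a1, a mesenchyme marker, was found in 99.2% of follicle-like and in 74.4% of perivascular-like cells with Acta2. Rgs5, Pdgfra and Col1a1 are on the marker lists used for naming and were not left out of the clustering. Their shares in the classes therefore do not test what the cells with Acta2 are.

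The 4 follicle-like clusters, which are told apart here by their leading genes, differed in the set. The cluster led by Bmp3, Dkk2 and Nts (cluster 9) had the highest mean Myh11 of them (40.5 CPM), at 11.3 and 30.2 CPM in the WT libraries and 101 and 19.6 CPM in the Din-KO libraries, with Din-KO replicate 1 far above the rest. In WT replicate 1 it was below the clusters led by Sfrp2 (18.6 CPM) and by Lpl (26.9 CPM). The cluster led by Spp1, Mmp13 and Ibsp (cluster 17) held 21 of the 22 follicle-like Des UMIs, in 13 of its 199 cells, at 3.98, 7.72, 10.2 and 6.98 CPM. The clusters led by Sfrp2 and by Bmp3, with 610 and 438 cells, held no Des UMI. The same Spp1 cluster held the high Actg2 of WT replicate 1, at 73.3 CPM against 0, 1.70 and 5.59 CPM in the other libraries. Cnn1 had a mean of 29.5 CPM in the cluster led by Sfrp2 and 4.03 CPM in the one led by Lpl. The cluster led by Lpl (cluster 20) had no follicle marker among its 10 leading genes and the highest mean Acta2 of the 4 (870 CPM). In both replicate 1 libraries the cluster led by Sfrp2 had more Acta2 than it (1191 against 907 CPM in WT and 943 against 623 CPM in Din-KO). Among the pulp-like clusters Acta2 reached 298 CPM in the 29 cells of WT replicate 2 in the cluster led by Smoc2, and 244 CPM in the 10 cells of Din-KO replicate 2 in the cluster led by Cnmd, against at most 36.3 CPM in the other libraries of both clusters. Outside these classes, the endothelium-like cluster led by Gja4, Cldn5 and Sox17 held 20 of the 21 endothelium-like Des UMIs.

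**Figure D4:**
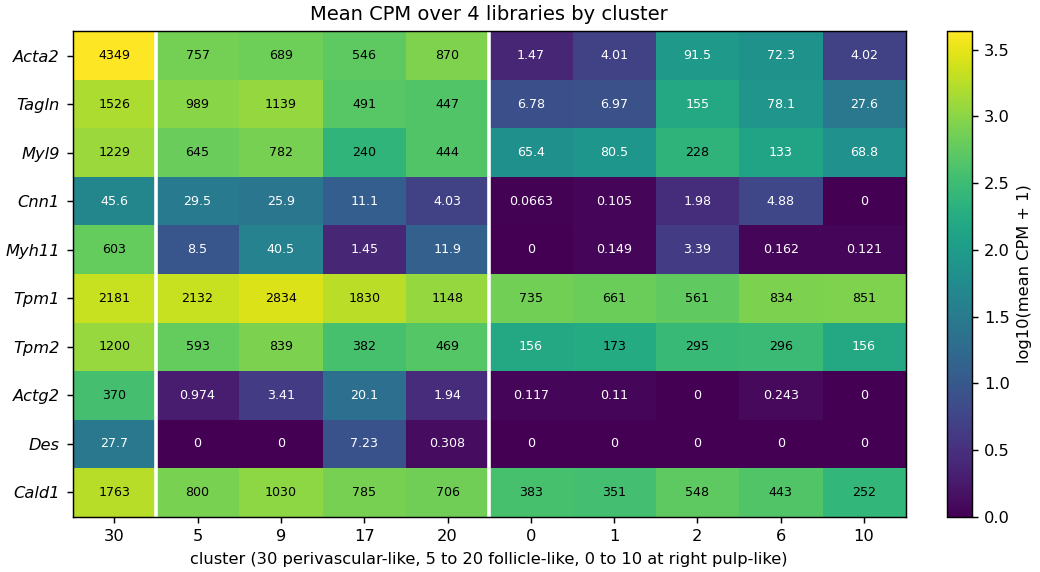
Mean CPM over 4 libraries (number in each cell, color as log10 of the mean CPM + 1) of the 10 genes in the perivascular-like cluster (30), the follicle-like clusters (5, 9, 17 and 20) and the pulp-like clusters (0, 1, 2, 6 and 10), separated by white lines. Des is at 7.23 CPM in cluster 17 and 0 in clusters 5 and 9, and Myh11 is at 603 CPM in cluster 30 and at most 40.5 CPM elsewhere.

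The other genes of smooth muscle were mostly higher in perivascular-like cells. Unlike the set, genes of this list and of the regulator, transcription, nonmuscle and stress lists below were not left out of the clustering. Their calls and medians between classes are therefore not independent of the clusters and are not separate support for what the classes are. Of 15 other structural genes, 13 were higher and 0 lower in perivascular-like than in pulp-like cells, and 9 were higher and 0 lower than in follicle-like cells, with medians of 2.05 and 1.23 on the log2 scale against -0.17 and -0.15 over all genes tested. Among all genes, 11.0% and 8.09% were called higher and 13.5% and 11.2% lower. The structural genes included Lmod1, which nucleates actin filaments in smooth muscle (4.59 ± 0.35 over follicle-like cells), Pdlim3 (5.10 ± 0.54) and Mustn1 (5.17 ± 0.27). Over pulp-like cells Mylk, the myosin light chain kinase, had a log2 fold change of 3.20 ± 0.17 and Synpo2 5.36 ± 0.58. Some were shared with follicle-like cells, where Lmod1 (4.43 ± 0.53), Mustn1 (3.38 ± 0.39) and Synpo2 (3.14 ± 0.42) were higher than in pulp-like cells. Pdlim3 was lower there (-2.22 ± 0.44).

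Of 15 contraction regulators tested, 13 were higher and 1 was lower in perivascular-like than in pulp-like cells, and 12 were higher and 0 lower than in follicle-like cells (medians 1.57 and 1.64). The shares of all genes called were 11.0% and 8.09% higher and 13.5% and 11.2% lower. Between follicle-like and pulp-like cells 5 regulators were higher and 5 lower, with a median of -0.05, against 19.7% and 18.1% of all genes. Ppp1r14a, an inhibitor of myosin phosphatase, was higher in perivascular-like than in follicle-like cells (5.10 ± 0.30) and lower in follicle-like than in pulp-like cells (-1.26 ± 0.27). Ppp1r12b, a myosin phosphatase subunit, was also lower in follicle-like than in pulp-like cells (-3.12 ± 0.17). Kcnmb1, the beta subunit of the calcium-activated potassium channel of smooth muscle, had a log2 fold change of 6.08 ± 0.84 over follicle-like cells, Agtr1a, an angiotensin receptor, 3.74 ± 0.58, and Gucy1b1, a subunit of the nitric oxide receptor, 3.35 ± 0.26.

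Of 12 transcription regulators tested, 8 were higher and 1 lower in perivascular-like than in pulp-like cells, 9 were higher and 0 lower than in follicle-like cells, and 7 were higher and 2 lower in follicle-like than in pulp-like cells (medians 1.60, 2.29 and 0.79). Among all genes tested, 11.0%, 8.09% and 19.7% were called higher in these comparisons and 13.5%, 11.2% and 18.1% lower. Myocd, which encodes myocardin, was higher over follicle-like cells by 4.03 ± 0.70 on the log2 scale and over pulp-like cells by 6.20 ± 0.87, and it was higher in follicle-like than in pulp-like cells by 2.17 ± 0.80 (adjusted p = 0.0449). Heyl, a target of Notch signaling, was higher in perivascular-like than in follicle-like cells by 4.24 ± 0.23, Nr2f2 by 4.52 ± 0.25 and Ebf1 by 3.12 ± 0.18.

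Of 13 nonmuscle counterparts, 7 were higher and 0 lower in perivascular-like than in pulp-like cells, and 5 were higher and 3 lower than in follicle-like cells (medians 0.65 and 0.29). For this list and the dissociation stress list below, the shares of all genes were 11.0% and 8.09% higher and 13.5% and 11.2% lower. The nonmuscle myosin heavy chains went opposite ways over follicle-like cells, with Myh9 at 1.33 ± 0.15 and Myh10 at -1.21 ± 0.19. None of 10 sarcomeric and skeletal muscle genes had enough counts to be tested between classes. Of 12 genes of the dissociation stress list, 4 were higher in perivascular-like than in pulp-like cells and 6 than in follicle-like cells, among them Atf3 (2.85 ± 0.80) and Hspa1b (1.76 ± 0.34). Their part in the differences of the contractile genes was not tested.

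No gene of the set was called different between Din-KO and WT cells in any of the 3 classes. In perivascular-like cells 8 of the 10 genes had enough counts, and 0 were called, against 0.0274% of 3654 genes tested, with 130 of those genes at an unadjusted p under 0.05. Log2 fold changes ran from -0.43 ± 0.39 for Acta2 and -0.43 ± 0.28 for Tpm1 to 0.21 ± 0.36 for Myh11, with edgeR adjusted p of 1.00 throughout. Acta2 was at 4946 ± 80.4 CPM (SD, n = 2 libraries) in WT and 3752 ± 2102 CPM in Din-KO libraries, the latter split between 5238 and 2265 CPM. The low library, Din-KO replicate 2, had 9 cells. A single cell held 81733 of their 169526 UMIs, 256 of their 384 Acta2 UMIs and 199 of their Tpm1 UMIs, so that cell weighs heavily in these sums. Without this library the log2 fold change of Acta2 was 0.07. Of the 8 genes tested, both Din-KO libraries were below both WT libraries for 1, Tpm1, as they were for 12.1% of all genes tested (28.5% lay apart in 1 direction or the other), and the sparse Cnn1, which was not tested, was placed likewise. The other genes overlapped.

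In follicle-like cells 9 genes were tested and 0 called, against 0 of 12943 genes (0%) by edgeR, 287 of which had an unadjusted p under 0.05, and 41 by DESeq2. The log2 fold changes ran from -1.78 ± 1.42 for Actg2 to 0.73 ± 0.57 for Myh11. Both ends rested on single libraries. Without WT replicate 1 Actg2 was at 2.54, and without Din-KO replicate 1 Myh11 was at -0.41. The WT and Din-KO libraries overlapped for all 10 genes, whereas 23.3% of all genes tested did not overlap, 8.13% with both Din-KO libraries lower.

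In pulp-like cells 6 genes were tested and 0 called, against 0.0150% of 13358 genes, which are the Y-linked genes Ddx3y and Eif2s3y. The genes with the most counts had narrow errors, with log2 fold changes of -0.02 ± 0.27 for Cald1, -0.13 ± 0.23 for Myl9, -0.28 ± 0.25 for Tpm2 and -0.41 ± 0.27 for Tpm1. Both Din-KO libraries were below both WT libraries for Tpm1 (588 and 630 against 748 and 859 CPM) and Tpm2 (180 and 182 against 207 and 229 CPM), or 2 of the 6 genes tested, against 11.9% of all genes tested (22.0% lay apart in 1 direction or the other). With the replicate number as a block, Tpm1 was called lower in Din-KO (-0.41, adjusted p = 0.0466, edgeR), among 306 genes called in all. Acta2 (-0.75 ± 0.91) and Tagln (-0.39 ± 0.95) varied between replicate numbers more than between genotypes. Without Din-KO replicate 2, Acta2 was at -2.08 and Tagln at -2.12, from a single Din-KO library. Without WT replicate 2, from a single WT library, they were at 0.68 and 1.08.

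The difference between Din-KO and WT libraries was also compared between classes. For 0 of the 10 genes was the Din-KO effect in perivascular-like cells called different from that in follicle-like or in pulp-like cells (Des against pulp-like cells could not be estimated), against 0 of 13623 genes (0%) in either test by edgeR, with 808 and 824 genes at an unadjusted p under 0.05. DESeq2 called 4 and 16 genes. The genotype difference of Cnn1 in perivascular-like cells minus that in follicle-like cells was -1.76 ± 0.77 on the log2 scale (adjusted p = 0.839), from 35 UMIs in perivascular-like cells. The dissociation stress genes had positive log2 fold changes for 12 of 12 in follicle-like cells (median 0.83) and 12 of 12 in pulp-like cells (median 0.71) and for 0 of 10 in perivascular-like cells (median -0.48), with 0 called in each. Their sum in WT replicates 1 and 2 and Din-KO replicates 1 and 2 was 916, 1841, 1692 and 2740 CPM in follicle-like cells. In pulp-like cells it was 758, 2459, 1385 and 4049 CPM, so the genotypes overlapped in both classes, with replicate 2 higher in each genotype. It ran from 1597 to 5275 CPM in perivascular-like cells, and its part in the genotype comparison was not tested. No other smooth muscle list had a gene called between genotypes.

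**Figure D5:**
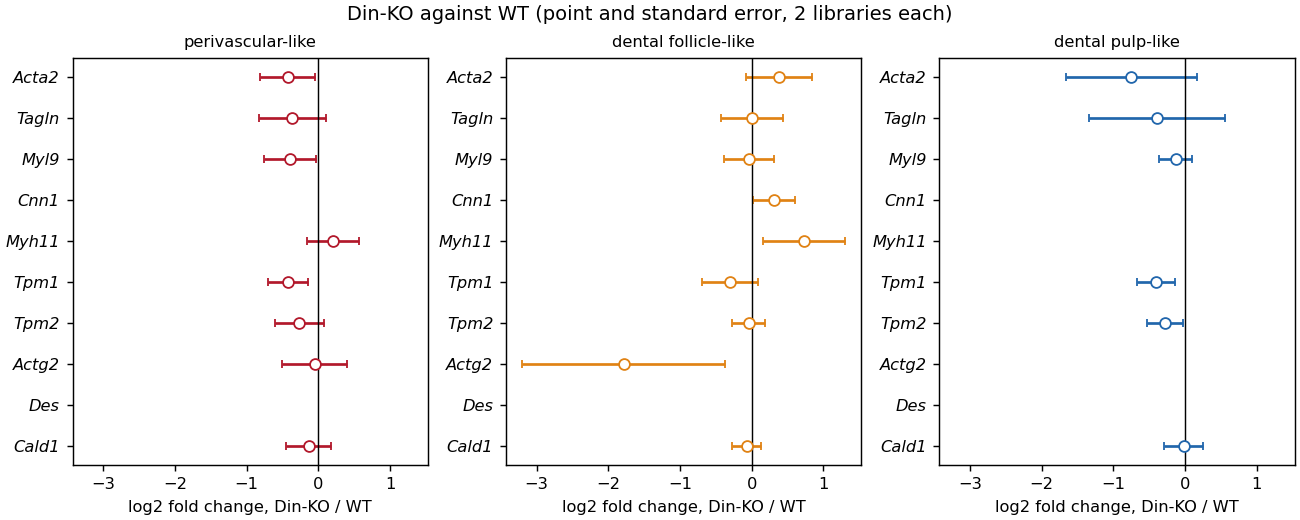
Log2 fold changes of Din-KO over WT in UMI sums of each class (points, with bars of 1 standard error, 2 libraries in each group). Genes without a point had too few counts to be tested, and no point passed an edgeR adjusted p under 0.05.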

How the data were processed

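Single-cell libraries of 2 WT and 2 Din-KO samples were grouped by the labels. The authors aligned reads to mm10/GRCm38 and deposited UMI counts per gene and barcode from CellRanger 6.0.2, without normalization. The values were used as deposited. Barcodes were kept where 1000 genes or more were detected and where mitochondrial UMIs made up no more than 10% and hemoglobin UMIs no more than 3%. The cells were integrated in Seurat 5.3.0 (2000 variable genes without the 10 genes, cell cycle regressed, 30 components, resolution 1) and named from marker lists. UMIs were summed per class and library and tested with edgeR 4.0.16 (TMM, its low count filter, quasi-likelihood test, Benjamini-Hochberg threshold 0.05), with the library as a block between classes and no covariate between genotypes. DESeq2 1.42.0 was an alternative. The methods were tested on simulated counts. CPM of a class are counts per 1000000 of its UMI sum. Scrublet marked 107 cells (0.946%) as doublets, which stayed in, and an alternative left out the top share of 0.05 by score in every library. Confidence intervals hold counting error alone. Free RNA was not removed. Exact permutation of 2 libraries against 2 cannot give a p under 0.333.

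The 10 genes and all lists were chosen with earlier results of these data known. Of the other lists, at most the 4 called genes with the largest fold in a comparison are named, or all where 5 or fewer were called. Other alternatives were RLE size factors, no low count filter, each library left out, the replicate number as a block, cells thinned to 2000 UMIs, cells of other markers removed, and other choices of cells and clusters. Adding unnamed pulp clusters and taking Xist cells alone were chosen after seeing the data. A gene that the naming rule also takes in is not reported here.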

Additional observations from a re-analysis of the deposited data

How the results depend on the processing

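Where tested, all 10 genes stayed higher in perivascular-like and in follicle-like than in pulp-like cells in direction. Of 168 values tried in each comparison only Tpm1 against perivascular-like cells lost its call, in both choices of cells one by one. The comparison with follicle-like cells changed with the cells. With cells chosen one by one (553 perivascular-like cells), with cells of at least 500 genes (574), at resolution 0.5 (238) and without regression of the cell cycle (234), the genes called higher numbered 3, 3, 2 and 6 and those called lower 4, 4, 1 and 1, against 7 and 0. Of all genes, 13.2%, 13.4%, 9.44% and 10.9% were called higher in these settings and 12.9%, 12.5%, 8.23% and 11.5% lower. With the first pair of choices Tagln was at -1.66 and -1.63, Myl9 at -0.87 and -0.84, Cnn1 at -1.80 and -1.78, Tpm2 at -0.72 and -0.70 and Cald1 at -0.40 and -0.39 on the log2 scale. At resolution 0.5 Tagln was at -0.38, Cnn1 at -0.65 and Tpm2 at -0.028, and without regression Cnn1 at -0.27. The cells the clusters placed elsewhere are counted in the report. Without Din-KO replicate 2 Cnn1 was called as well, so leaving out a library gave 7 to 8 genes higher and a Tpm1 change of -0.32 to 0.016. Over all genes these fits called 766 to 949 higher, of 12142 to 13123 tested. Xist cells alone left 49 perivascular-like cells, of which 8 and 3 were from the Din-KO libraries. Between genotypes edgeR called 0 of 2370 genes in them, 0 of 12164 in follicle-like and 0 of 12019 in pulp-like Xist cells.

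Between genotypes, leaving out a library moved perivascular-like Acta2 from -1.14 to 0.073 and Myh11 from -0.14 to 0.51, follicle-like Actg2 from -2.80 to 2.54 and Myh11 from -0.41 to 1.39, and pulp-like Acta2 from -2.08 to 0.68, Tagln from -2.12 to 1.08 and Cald1 from -0.22 to 0.17. Each of these fits leaves a lone library in 1 group, which is assumed to vary as the other group does. Genes of the set that such a genotype fit called are therefore not listed. Perivascular-like Acta2 was at 0.32 and 0.30 and Tpm1 at 0.068 and 0.046 with cells chosen one by one and with at least 500 genes, Myh11 was at -0.17 with thinned cells, and pulp-like Cald1 was at 0.0019 without regression. With no filter on low counts 1 gene of the set was called in follicle-like cells, Actg2, among 172 called of 20242 genes tested. None of these causes was tested.

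The replicate numbers of the labels gave 2 pairs, whose deviations correlated at 0.16 in perivascular-like, 0.58 in follicle-like and 0.58 in pulp-like cells, and nothing in the labels says that a number marks a shared batch. With the replicate block, 1 gene of the set was called in pulp-like cells (Tpm1, -0.41, adjusted p = 0.0466), among 306 genes in all, and 0 in the other classes.

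Over all genes, calls higher in perivascular-like cells were 533 with thinned cells against 1396 (over pulp-like) and 374 with thinned cells and 1677 with cells of at least 500 genes against 1024 (over follicle-like). Follicle-like over pulp-like calls were 1152 thinned against 2489. Genotype calls ran from 0 to 139 in perivascular-like, 0 to 172 in follicle-like and 0 to 306 in pulp-like cells, and from 0 to 124 and 0 to 123 for the differences between classes. The promoter box with 1 G or C allowed was found in 2 genes. Depth limits Cnn1 and Des most, with 35 and 21 UMIs in perivascular-like cells.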

Other observations

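Over 37 sums of a class in a library (11 classes, 2 of the sums perivascular-like), the genes whose log2(CPM + 1) was most like that of Acta2, among 15850 genes and leaving out the set itself, were Synpo2 (Pearson r = 0.885), Kcne4 (0.863), Lmod1 (0.858), Adra1b (0.837) and Inhba (0.834). For Myh11 they were Lmod1 (0.953), Trpc6 (0.952), Ebf2 (0.894), Synpo2 (0.893) and Jph2 (0.879). Lmod1 and Synpo2 stood in both lists. Within the set the most alike were Tpm1 and Tpm2 (0.914) and the least alike Tpm1 and Des (0.415). These correlations are descriptions, since sums of a library share its depth and its mice.

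Glia-like cells (94 cells, 14 to 45 per library) held part of the set, with Acta2 at 21.0 ± 37.3 CPM from 22 UMIs. Tagln was at 239 ± 59.9 CPM (SD, n = 4 libraries), Des at 17.4 ± 15.3 CPM from 13 UMIs and Cnn1 at 0 UMIs. Tagln was found in 49 of the 94 cells and Acta2 in 4.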
